A study of Mus musculus with 18 samples.

Results

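The oligos described here are the 3449 inserts of an INSERT-seq library that are numbered 1 to 4000, have no spliced form listed and are well enough represented in the cells to be measured. INSERT-seq places a pool of designed DNA inserts at 1 genomic site and reads the RNA that each insert gives. Of 16461 inserts in all, 4000 carry these numbers, and 422 of those (10.5%) have a spliced form listed in the RNA table. A further 129 had a mean genomic DNA (gDNA) count under 20 over the 9 gDNA libraries and were left out. They are compared with the 9788 inserts of higher number that meet the same conditions. Members were thus chosen by number and by 2 measured values, the absence of a spliced row in the RNA table and the mean gDNA count, and neither is a finding. The number range was itself proposed with earlier results of these data known. For that reason medians and shares over the members are given with their spread between cultures and carry no p-value.

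The cells were mouse embryonic stem cells of a female CAST/129 hybrid line, grown with LIF and inhibitors of MEK and GSK3. The genotype was the same in every culture, controls included: TagBFP2 at Oct4C, the insert library at Oct4ua157 and mKate2 at Oct4ua172, each labelled (129). There were 3 biological replicates each of a non-targeting siRNA (siNT), siWDR82 and siZC3H4, and each culture gave an RNA and a gDNA library, 18 libraries in all. The siRNA dose on the labels was 30 nM, except for siWDR82 replicates 2 and 3, which are labelled 31 and 32 nM although the treatment protocol gives 30 nM throughout.

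WDR82 and ZC3H4 are the core subunits of the Restrictor complex. The depletion of either protein was not analysed here, since the libraries are amplicons of the insert site. Restrictor acts early in transcription by RNA polymerase II and limits the extension of noncoding transcripts, among them the upstream antisense RNAs (uaRNAs) that start divergently at many promoters. The inserts lie in the uaRNA of Oct4, the product of Pou5f1 (mm10 chromosome 17, 35506032 to 35510777), a pluripotency gene that these cells transcribe strongly. RNA was reverse transcribed from a primer in mKate2 downstream of the insert, so a read needs an RNA that extends past the insert. The readout is the steady-state RNA level, and the title of the series names the effect of sequence on attenuation by Restrictor as its question.

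The tables pair an insert's number with no sequence or source gene, and sequences were not analysed here. The sources used here do not give the order of the library. The number is therefore used only as a label, and nothing below says what kind of sequence the members are.

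Insert reads came to 32173068 to 52840375 per RNA library and 4584881 to 11510602 per gDNA library. The median gDNA count of a member was 675 to 778 reads in the siNT libraries, against 473 to 530.5 for the other inserts. In the knockdown libraries it was 296 to 660, against 198 to 505. Members were thus read more deeply than the others in all 9 gDNA libraries. In 9 of 9 cultures the RNA and gDNA libraries deviated in parallel from their groups. The tests below have no culture term unless a fit with the culture as a block is named.

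Members gave much RNA for their number in the cell pool. In siNT cultures they held 27.5 ± 2.3% (SD, n = 3) of the gDNA reads but 43.8 ± 1.4% of the RNA reads. The level of an insert is given as the log2 ratio of its RNA to its gDNA, both as CPM (reads scaled to the total insert reads of the library) plus 0.5. The median member had a level of 0.37, 0.21 and 0.08 in siNT replicates 1, 2 and 3. The median of the other inserts without a spliced form was -1.60, -1.37 and -1.34. In no siNT culture did the medians come near each other, and the gap was 1.66 ± 0.28 (SD, n = 3).

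The distribution of members was shifted upward and was narrower. The siNT level averaged over cultures ran from -2.52 at the 5th percentile of members through 0.16 at the median to 1.87 at the 95th, a 21.1-fold range. For the others the same percentiles were -4.39, -1.54 and 0.85, a 37.8-fold range. A level above 0, meaning more of the RNA than of the gDNA reads, was found for 1900 members (55.1%) and for 1494 of the others (15.3%). When all inserts without a spliced form were ranked in 5 equal groups by siNT level, members made up 5.7% of the lowest group and 59.7% of the highest. The highest group held 45.8% of all members and the lowest 4.38%. The level was also steadier for members, with a median SD of 0.55 between siNT cultures against 0.83 for the others. Members had more reads, with a median of 2849 to 3195 RNA reads per siNT library against 543 to 598.5. The SD was not compared at matched depth or level.

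Single inserts were tested against the library average with edgeR's quasi-likelihood test over 15484 inserts. RNA over gDNA was above average for 919 members and below it for 282 (edgeR adjusted p under 0.05). Over all inserts tested, 12.3% were called above and 26.9% below, while among members the shares were 26.6% and 8.18%. Among the other inserts without a spliced form they were 4.4% and 36.3%. Taking each culture's RNA and gDNA as a pair gave 1170 members above and 431 below, where 15.7% and 33.2% of all inserts were called. Library totals in place of TMM factors gave 762 and 373, against 10.2% and 31.1%, and DESeq2 gave 1022 and 352, against 13.7% and 31.9%. In each of these fits the share of members above was larger, and the share below smaller, than over all inserts.

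The gap was present at every depth of gDNA. Inserts were ranked in 5 equal groups by their siNT gDNA reads. The median level of members was -0.36, -0.04, 0.10, 0.10 and 0.40 from the lowest to the highest group, and that of the others was -1.80, -2.01, -1.64, -1.36 and -0.90. Members were higher in each of the 5 groups.

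The members of highest siNT level with a mean gDNA count of at least 100 were sequence_00580 and sequence_01137. sequence_00580 had siNT levels of 4.98, 5.29 and 7.23, siWDR82 levels of 6.65, 6.45 and 3.96, and siZC3H4 levels of 2.87, 3.94 and 3.35. The siNT levels of sequence_01137 were 5.12, 4.88 and 6.11, its siWDR82 levels 6.18, 6.58 and 4.32, and its siZC3H4 levels 3.31, 3.24 and 3.67. In both inserts all 3 siZC3H4 cultures lay below all siNT cultures, whereas the siWDR82 cultures fell on both sides of some siNT cultures. Neither change passed the test (edgeR adjusted p = 0.112 and 0.374 with siZC3H4, 0.869 and 0.995 with siWDR82). Together these inserts took 1.01, 1.62 and 6.75% of the insert RNA reads of the siNT libraries from 0.0308, 0.0471 and 0.0681% of the gDNA reads. Without them the members' share of siNT RNA was 42.0 ± 0.47% (n = 3).

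Few members were silent. In siNT replicates 1, 2 and 3, 85, 79 and 61 members had no RNA read, 2.17 ± 0.36% (SD, n = 3) of them, against 9.52 ± 1.3% of the other inserts. The shares of the cultures did not overlap, with 1.77 to 2.46% for members and 8.09 to 10.4% for the others. Over the 3 siNT cultures together, 13 members had 0 RNA reads and 28 (0.812%) had at most 3, where the others had 266 and 475 (4.85%). PCR reads without molecular identifiers are not independent molecules, so a share of inserts at or near 0 covers reads, not transcripts.

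Part of that contrast moved with gDNA depth. Of the 28 near-silent members, 23 were in the lowest of the 5 groups by siNT gDNA reads, which reaches up to 603 reads over the 3 cultures. In that group 5.78% of members and 19.4% of the others had at most 3 siNT RNA reads. In the next groups the shares were 0.745% against 2.25% and 0.147% against 0.557%. In the group after these, 0 of 824 members and 6 of 1916 others (0.313%) were near-silent, too few to read. In the deepest group neither the 1012 members nor the 1728 others had a near-silent insert. At the gDNA depth of the other inserts, the members' share without an RNA read in a culture would have been 3.76 ± 0.68% (n = 3), still below 9.52%.

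The members without siNT RNA that were best represented in siNT gDNA had 0 RNA reads in all but 1 of the knockdown cultures. sequence_01625 had 48, 247 and 99 gDNA reads and no RNA read in the siNT cultures, and sequence_02651 had 53, 5 and 234 gDNA reads and none. With siWDR82 both had 0 RNA reads in all 3 cultures. With siZC3H4 sequence_02651 had 0 in all 3, and sequence_01625 had 0, 0 and 224, so its reads came from a single culture, in which it had 10 gDNA reads and a level of 0.84. No fold change is given for it, since 1 culture held all its RNA reads, and the change was not called (edgeR adjusted p = 0.259). The near-silent members were picked for few siNT reads, so their reads in other cultures are a description only. Of the 28, 24 had more than 3 RNA reads over the siWDR82 cultures and 23 over the siZC3H4 cultures, but only 6 and 7 had a read in all 3 cultures. Of the 475 near-silent others, 360 and 359 had more than 3 reads and 168 and 156 had a read in all 3.

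Within the number range the members were alike from block to block. In 8 consecutive blocks of 500 numbers, with 416 to 439 members each, the median siNT level lay between 0.01 (2501 to 3000) and 0.33 (1001 to 1500). None of the 25 blocks above 4000 fell within that range, and their medians ran from -2.37 to -0.28. The nearest were the blocks just past the limit, with -0.28 for 4001 to 4500, -0.41 for 4501 to 5000 and -0.33 for 5001 to 5500, followed by -1.20 for 5501 to 6000. The near-silent share was 0 to 1.37% in the member blocks and 0.228 to 16.8% in the others, of which 3 lay within the members' range. The block medians of level thus did not overlap across the limit, while the silent shares did. The limit was itself proposed with earlier results of these data known, so the separation is a description and no support for it.

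At the limits of the rule, sequence_04000, the last member, had a siNT level of -0.14, and sequence_04001, the first insert past the limit, 1.83. Just inside the gDNA minimum were sequence_02893 and sequence_03363, with mean counts of 21.0 and 22.0 and siNT levels of -1.53 and 0.48. Just outside were sequence_03622 and sequence_00943, with 19.8 and 19.1 and levels of 0.30 and 1.99. Against the inserts numbered 4001 to 5500, the most similar range, members stood at 0.22 ± 0.14 against -0.25 ± 0.15 (SD over siNT cultures, n = 3). For inserts 5501 to 9000 and 9001 to 12000 the values were -1.47 ± 0.13 and -1.98 ± 0.27.

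With either Restrictor siRNA, members lay closer to the other inserts than in siNT. The gap between their median levels, 1.97, 1.58 and 1.43 in the siNT cultures, was 1.06, 1.11 and 0.96 with siWDR82 and 1.42, 1.33 and 1.22 with siZC3H4. With siWDR82 the gap was well under that of any siNT culture. The siZC3H4 cultures also lay below them, but the highest differed from the lowest siNT culture by only 1.42 against 1.43. The siWDR82 and siZC3H4 cultures, which share no control in this comparison, did not overlap either, with the gap smaller under siWDR82.

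The size of the change in each set depends on the scale. A scale shifts all inserts of a library about equally, so the difference between the sets was bound to be similar on each scale. On the scale of library totals, the median member changed by 0.05 ± 0.036 with siWDR82 and the median other insert by 0.63 ± 0.044 (SD, n = 3). With siZC3H4 the changes were 0.21 ± 0.084 and 0.53 ± 0.039. The difference, members minus others, was -0.58 ± 0.076 with siWDR82 and -0.32 ± 0.089 with siZC3H4. siNT cultures set against each other differed in the same quantity by 0.35, -0.09 and -0.32 for replicates 1, 2 and 3, an SD of 0.34. The siWDR82 values of -0.57, -0.51 and -0.66 were all outside the range of the siNT values, and of the siZC3H4 values of -0.23, -0.32 and -0.41 only the last was. Both comparisons use the same siNT cultures. Without siNT replicate 1 the differences were -0.44 and -0.20, and without siNT replicate 3 they were -0.68 and -0.41.

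The direction of the members' own change depended on the scaling, so only the difference from other inserts is read here. In the edgeR fit with TMM factors the median fitted log2 change of members was -0.28 with siWDR82 and -0.09 with siZC3H4, where all inserts had 0.07 and 0.06. With library totals the members' medians were 0.00 and 0.17 and those of all inserts 0.34 and 0.32. With RNA scaled to spike-in reads they were 1.01 and 0.87, against 1.34 and 1.02. Members minus others was -0.60 with siWDR82 and -0.33 with siZC3H4 by TMM and by library totals, and -0.58 and -0.33 by spike-in reads. A factor common to a library nearly cancels in this difference, so the similar values are not separate support. A pseudocount does not cancel, and 2 CPM gave a median change of levels, members minus others, of -0.46 and -0.23, against -0.58 and -0.32.

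Fewer members were without reads in the knockdown cultures, and their levels lay closer together. The share of members without an RNA read in a culture was 1.20 ± 0.17% with siWDR82 and 1.15 ± 0.30% with siZC3H4, below every siNT culture in all 6 knockdown cultures. For the others it was 4.27 ± 0.092% and 4.56 ± 0.53%. The interquartile range of member levels narrowed from 1.76 ± 0.026 in siNT to 1.34 ± 0.062 with siWDR82 and 1.34 ± 0.026 with siZC3H4 (n = 3 each). That of the others went from 2.46 ± 0.19 to 1.74 ± 0.085 and 1.95 ± 0.060. Neither set's knockdown cultures overlapped its siNT cultures.

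Because members had more RNA in siNT, and the response varied with that level, members and others were also compared at matched siNT level. Inserts without a spliced form were ranked in 20 equal groups by their level in 1 siNT culture, changes were taken against the remaining siNT cultures, and the result was averaged over the choice of culture. At matched level the difference, members minus others, was -0.16, -0.18 and -0.24 in the siWDR82 cultures, -0.19 ± 0.043 (SD, n = 3). With siZC3H4 it was 0.07, -0.01 and -0.12, or -0.02 ± 0.092. The same measure between siNT cultures was 0.36, -0.12 and -0.24 for replicates 1, 2 and 3, an SD of 0.32. So at matched level neither difference was larger than the spread between control cultures.

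The matched values also turned on siNT replicate 1. Without it they were -0.04 with siWDR82 and 0.14 with siZC3H4. Without siNT replicate 2 they were -0.27 and -0.09, and without siNT replicate 3 -0.27 and -0.10. The reference for a siNT culture is a single other siNT culture, so the control spread is wider by construction than that of a knockdown culture.

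Among members themselves the response ran with the siNT level. In 5 equal groups of inserts by level, from the lowest to the highest, the median member changed by 0.68 ± 0.057, 0.65 ± 0.021, 0.43 ± 0.047, 0.15 ± 0.033 and -0.27 ± 0.039 with siWDR82 (SD, n = 3). The others changed by 1.09 ± 0.091, 0.92 ± 0.048, 0.58 ± 0.036, 0.31 ± 0.027 and -0.01 ± 0.066. Members were lower than others in all 5 groups, by 0.41 ± 0.060 in the lowest and 0.15 to 0.27 in the rest. With siZC3H4 the members' values were 0.74 ± 0.15, 0.71 ± 0.031, 0.56 ± 0.064, 0.30 ± 0.078 and -0.07 ± 0.085. Those of the others were 0.90 ± 0.031, 0.76 ± 0.035, 0.52 ± 0.031, 0.30 ± 0.056 and 0.00 ± 0.043. There the signs of the difference were mixed, from -0.16 ± 0.15 in the lowest group to 0.04 ± 0.050 in the middle group.

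Across the number range, the 8 member blocks had median changes of -0.10 (1001 to 1500) to 0.16 (1 to 500) with siWDR82 and of 0.11 to 0.25 with siZC3H4, on the scale of library totals. Of the 25 blocks above 4000, 1 lay within the members' range for each siRNA. With siWDR82 this was 13501 to 14000, at -0.04, and with siZC3H4 11001 to 11500, at 0.19. With siZC3H4 the block 13501 to 14000 lay below all member blocks, at -0.27, although its median siNT level was -2.03. The remaining blocks lay above the members' range. The inserts numbered 4001 to 5500 changed by a median of 0.30 and 0.33, and those numbered 5501 to 9000 by 0.70 and 0.58.

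Inserts whose groups did not overlap were counted from the same levels, on the scale of library totals. The counts are therefore not separate support, depend on that scale and are not matched for siNT level. No siWDR82 culture overlapped a siNT culture and each was higher for 469 members (13.6%), where the share over all inserts was 20%, and each was lower for 396 (11.5%), where it was 6.87%. Among the others 24.9% lay above and 3.25% below. With siZC3H4 501 members (14.5%) lay above and 201 (5.83%) below, against 18.1% and 5.18% over all inserts. Members thus had a smaller share above than all inserts with either siRNA, and with siZC3H4 a share below that was close to the background.

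Few single members passed the interaction test, which compares RNA over gDNA between a knockdown and siNT. With siWDR82, 4 members rose and 7 fell (edgeR adjusted p under 0.05), where 0.581% of all inserts rose and 0.11% fell. The members' shares were 0.116% and 0.203%. With siZC3H4, 2 rose and 2 fell, 0.058% each, against 0.323% and 0.0258%. Of all 17 inserts that fell with siWDR82, 7 were members and 1 was an insert of higher number without a spliced form. The rest, the largest group, had a spliced form. Of the 4 that fell with siZC3H4, 2 were members and 0 were other inserts without a spliced form. The rest again had a spliced form. At an unadjusted p under 0.05 there were 456 members (13.2%) with siWDR82, where the share over all inserts was 12.8%, and 236 (6.84%) with siZC3H4, where it was 9.36%. The siWDR82 risers had siNT levels from -6.21 to -1.76, while those that fell had 0.38 to 3.69 and stood at the 57.3 percentile of members or higher. The same siNT libraries enter the call, so low levels among risers and high levels among those that fell are in part built in.

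The pairing of RNA and gDNA changed these counts. With the culture as a block, 18 members rose and 112 fell with siWDR82, where 1.44% and 1.67% of all inserts were called, and the members' shares were 0.522% and 3.25%. All 7 falls of the unblocked test were among the 112, and 3 of the 4 rises were among the 18. With siZC3H4 5 rose and 2 fell under the block, against 0.342% and 0.0904% of all inserts. Scaling changed the split as well. With library totals 6 rose and 1 fell under siWDR82, where 0.878% and 0.0258% of all inserts were called. With spike-in scaling 71 rose and 0 fell, where 4.09% and 0.0194% of all inserts were called. In that edgeR fit 733 members (21.3%) had an unadjusted p under 0.05, against 27.0% of all inserts. With siZC3H4 library totals gave 5 rises and 1 fall, against 0.568% and 0.0129%. Spike-in scaling gave 5 rises and 0 falls, against 0.562% and 0.00646%. There 471 members (13.7%) had an unadjusted edgeR p under 0.05, against 17.4% of all inserts.

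Other tools moved the counts as well. DESeq2 called 19 members up (0.551%) and 77 down (2.23%) with siWDR82, where 2.17% and 1.15% of all inserts were called. With siZC3H4 DESeq2 called 14 up (0.406%) and 12 down (0.348%), where the shares over all inserts were 1.51% and 0.387%. Limma on log ratios called 2 members up and 0 down with siWDR82, against 0.387% and 0.0129%, and 1 up and 0 down with siZC3H4, against 0.0387% and 0.0194%. Its unadjusted p was under 0.05 for 557 (16.1%) and 450 (13.0%) members, against 21.6% and 19.4% of all inserts. In edgeR fits of siNT and 1 siRNA alone, 3 members rose and 0 fell with siWDR82, against 0.258% and 0.0129%, and 1 rose and 0 fell with siZC3H4, against 0.142% and 0.00646%. In those fits 391 (11.3%) and 213 (6.18%) members had an unadjusted p under 0.05, against 10.9% and 8.08% of all inserts. By DESeq2 the share of members that rose was below that over all inserts with both siRNAs. By limma and in the fits of siNT and 1 siRNA alone it was also lower, but there it rested on 1 to 3 members, too few to read. For falls the order differed between settings.

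The member of lowest p with both siRNAs was sequence_02188, which was almost without RNA in siNT cells. Its siNT RNA counts were 1, 2 and 6, against 146, 210 and 482 in the siWDR82 cultures and 202, 351 and 624 in those of siZC3H4. The gDNA counts were 475, 312 and 705, then 313, 211 and 175, then 268, 477 and 122. Every knockdown culture thus had many times the RNA reads of every siNT culture from a similar number of gDNA reads or fewer. Its log2 change was 6.43 with siWDR82 (SE 1.07, edgeR adjusted p = 0.00564) and 7.15 with siZC3H4 (SE 1.09, edgeR adjusted p = 0.00323). The calls also held with the culture as a block and with spike-in scaling. On leaving out each culture in turn, the edgeR adjusted p for siWDR82 ran between 0.00395 and 0.0783, and that for siZC3H4 between 0.00257 and 0.0491.

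sequence_02950 rose with siWDR82 from a low siNT level, at the 2.15 percentile of members. Its RNA counts were 584, 365 and 332 in siNT and 4784, 3175 and 3369 with siWDR82, from 1306, 912 and 1680 and from 1230, 741 and 531 gDNA reads. The levels of -3.07, -3.13 and -4.24 in siNT and -0.42, -0.83 and -0.46 with siWDR82 did not overlap. The log2 change was 2.71 (SE 0.52, edgeR adjusted p = 0.016), and 2.05 with siZC3H4, where it was not called (adjusted p = 0.114). The siWDR82 call was kept in 6 of 9 fits with a culture left out.

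sequence_02293 had siNT levels of -2.16, -1.52 and -1.59, at the 10.2 percentile of members. With siZC3H4 the levels were 0.77, 0.33 and 0.39, above all siNT cultures. The log2 change was 1.98 with siZC3H4 (SE 0.39, edgeR adjusted p = 0.024) and 1.74 with siWDR82 (edgeR adjusted p = 0.0396). With siWDR82 the levels were 0.03, 0.23 and 0.60. The siZC3H4 call was kept in 5 of 9 fits with a culture left out, and the siWDR82 call in 2 of 9, with adjusted p up to 0.206.

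The members that fell most clearly with siWDR82 were strongly expressed in siNT. sequence_03812 had RNA counts of 26190, 24004 and 21189 in siNT and 10407, 6278 and 5813 with siWDR82, from 987, 824 and 471 and from 698, 364 and 325 gDNA reads. Its levels of 2.77, 2.98 and 3.48 in siNT stood above those of 1.51, 1.17 and 1.03 with siWDR82. The log2 change was -2.03 (SE 0.39, edgeR adjusted p = 0.0154). Paired by culture it was -2.12 (adjusted p = 0.00623). With siZC3H4 it was -1.10 (adjusted p = 0.338). With spike-in scaling the siWDR82 value was -0.65 (edgeR adjusted p = 0.512), so the fall is relative to the other inserts. It was called in 7 of 9 fits with a culture left out.

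sequence_01811 fell with both siRNAs. Its siNT levels were 3.63, 3.56 and 3.88, its siWDR82 levels 2.82, 2.01 and 2.75, and its siZC3H4 levels 2.47, 2.93 and 2.61, so that no knockdown culture reached a siNT culture. The log2 change was -1.45 with siWDR82 (SE 0.28, edgeR adjusted p = 0.016) and -1.28 with siZC3H4 (SE 0.28, edgeR adjusted p = 0.0496). The siZC3H4 call was lost with the culture as a block (adjusted p = 0.0511) and held in 2 of 9 fits with a culture left out. With spike-in scaling the changes were -0.11 and -0.31 and neither was called (adjusted p = 0.916 and 0.789). Library totals gave -1.17 and -1.02, which were not called either (edgeR adjusted p = 0.0566 and 0.137).

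sequence_03579 fell with siZC3H4 from a siNT level at the 24.3 percentile of members. In siNT its RNA counts were 5391, 4383 and 2566, against 2482, 2032 and 2042 under siWDR82 and 1141, 714 and 1036 under siZC3H4. The levels with siZC3H4, at -2.39, -3.26 and -2.85, lay below those of siNT, at -0.52, -0.83 and -0.89, and below those of siWDR82, at -1.23, -1.34 and -1.85. The log2 change was -2.41 with siZC3H4 (SE 0.44, edgeR adjusted p = 0.0151) and -1.04 with siWDR82 (adjusted p = 0.312). With spike-in scaling the siZC3H4 value was -1.48 (adjusted p = 0.242), and the call held in 6 of 9 fits with a culture left out.

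Among these named members, sequence_02188 alone kept its calls under limma on log ratios, where the adjusted p of the others was between 0.0589 and 0.184. In edgeR fits of siNT and the siRNA concerned alone, sequence_02188 and sequence_02950 kept theirs, and the adjusted p of the others was between 0.0561 and 0.123.

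Tested directly, siZC3H4 against siWDR82 called 0 members and 0.0% of all inserts (edgeR). An unadjusted p under 0.05 was found for 78 members (2.26%), against 2.03% of all inserts. DESeq2 called 3 members up and 2 down, against 0.071% and 0.0904% of all inserts. The median fitted difference, siZC3H4 minus siWDR82, was 0.17 over members and 0.01 over all inserts.

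Representation of members in the cell pool gave the background of these ratios. With siWDR82 and siZC3H4 0 members changed in gDNA (edgeR), and 0.0% of all inserts were called. At an unadjusted p under 0.05 there were 132 (3.83%) and 148 (4.29%) members, against 2.72% and 4.2% of all inserts. By DESeq2 gDNA of 1 member was higher and of 1 lower with siWDR82, against 0.0258% and 0.0129% of all inserts, and with siZC3H4 of 2 and 2, against 0.11% and 0.0387%. The median gDNA change of members was -0.03 and -0.13, against -0.01 and -0.04 over all inserts. Members held 27.5 ± 0.73% of gDNA reads with siWDR82 and 25.8 ± 1.6% with siZC3H4 (n = 3), within the range of the siNT libraries but for 1 siZC3H4 culture at 24.2%.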

How the data were processed

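The authors deposited an RNA and a gDNA table of whole-number counts, not normalized, with a row for each insert, spliced form and spike-in. The submitters' processing notes name the tools STAR, Bowtie2 (2.3.4.3), SAMtools and cutadapt (1.14) and the build mm10, without roles. Spliced reads were added to the RNA of their insert, and members have none. All 15484 inserts with a mean gDNA count of at least 20 were fitted, with no RNA minimum, so that every member was tested. edgeR 4.0.16 (R 4.3.3) quasi-likelihood tests used 6 group means, TMM factors within RNA and within gDNA, and Benjamini-Hochberg adjustment over all inserts at 0.05. Levels used library totals and a pseudocount of 0.5 CPM. The scripts were tested on simulated data. The members and lists were chosen with earlier results of these data known. Named inserts are the 2 of lowest p that rose and fell per siRNA, the 2 of highest siNT level, the 2 best represented without siNT RNA, and those at the limits of the rule.

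RNA and gDNA libraries of a culture share its siRNA and replicate number, and correlated in their deviations in all 9 cultures (r over inserts between 0.29 and 0.47). They were therefore regarded as pairs, and a fit with the culture as a block is given beside the main test, which has no culture term. No pair of replicates was a duplicate (chi-square per degree of freedom at least 32.1). Alternatives covered DESeq2 1.42.0, limma 3.58.1, scaling, count minimums, the block and each culture left out.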

Additional observations from a re-analysis of the deposited data

How the results depend on the processing

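The gap in siNT level and the lower silent share of members kept their direction under every alternative run. The gap was 1.50 to 1.77 with a siNT culture left out, and the silent share differed by -7.85 to -7.03 percentage points, by -4.0 with a gDNA minimum of 100 and by -5.76 at the gDNA depth of the others, against -7.34. Calls above the average numbered 694 to 890 members with a culture left out, where 9.58 to 11.8% of all inserts were called. Below it were 213 to 281, where 21.6 to 25.9% of all inserts were called. With the block 431 were below, against 33.2% of all inserts. The median change, members minus others, was -0.68 to -0.44 with siWDR82 and -0.41 to -0.20 with siZC3H4 with a culture left out, and -0.46 and -0.23 with a pseudocount of 2 CPM. At matched level the ranges were -0.27 to -0.04 and -0.10 to 0.14.

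Counts of called members depended most on the processing. With siWDR82, rises were 19 by DESeq2, 18 with the culture as replicate block, 71 with spike-in scaling and 2 by limma. Falls were 1 with library totals, 77 by DESeq2, 112 with the block, and 0 with spike-in scaling, with only the libraries of siNT and that siRNA, and by limma. Leaving out siNT replicates 1, 2 and 3 gave 10, 7 and 11 rises, where 1.01, 1.15 and 1.47% of all inserts rose, and 8, 11 and 13 falls, where 0.368, 0.142 and 0.174% fell. For members the falls were 0.232, 0.319 and 0.377%. Leaving out siWDR82 replicates gave 0 to 1 of each, where 0.084 to 0.187% of all inserts rose and 0.0 to 0.00646% fell. With siZC3H4, rises were 5 with library totals, the block or spike-in scaling, 14 by DESeq2, and 1 by limma or with only those libraries. Falls were 1 with library totals or no count minimum, where 0.0129 and 0.0184% of all inserts fell. They were 12 by DESeq2, and 0 with spike-in scaling, only those libraries or limma. Leaving out siNT replicates gave 14, 5 and 10 rises, where 0.949, 0.775 and 1.18% of all inserts rose, and 8, 1 and 2 falls, where 0.659, 0.0323 and 0.0323% fell. For members the falls were 0.232, 0.029 and 0.058%. Leaving out siZC3H4 replicates gave 1 rise and 0 falls each, where 0.071 to 0.142% of all inserts rose and 0.0 to 0.00646% fell. DESeq2 gave no adjusted p for 5 members. It gave 3 and 2 calls between the siRNAs, where leaving out any culture gave 0. Calls of single named members were kept 53 times and lost 19 times under the other settings, kept 49 times and lost 23 times with a culture left out, and never changed direction in these fits.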

Other observations

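The RNA reads of all members, divided by the spike-in reads of the library, came to 11.1, 17.2 and 17.1 in siNT replicates 1, 2 and 3, 40.4, 18.9 and 23.6 with siWDR82, and 10.4, 22.8 and 31.5 with siZC3H4. With siWDR82 each value exceeded those of siNT, and the siZC3H4 values fell on both sides. On the spike-in scale the median member changed by 0.97 ± 0.51 with siWDR82 (SD, n = 3) and by 0.74 ± 0.78 with siZC3H4, with a spread between cultures of -0.15 to 1.32 for the latter. The median other insert changed by 1.48 ± 0.51 and 1.01 ± 0.83, so a rise on this scale was not particular to members.

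The RNA reads of sequence_00580 and of sequence_01137 ranked the 9 cultures in the same order, but their levels did not. In siNT cells their summed RNA reads were 451154, 664037 and 3066812. Under siWDR82 they came to 1670863, 1448428 and 267508, and under siZC3H4 to 114307, 119895 and 354136. By level, the highest siNT culture and the lowest siWDR82 culture were the same for both inserts. The lowest siNT culture and the highest siWDR82 culture were not. Nor did the siZC3H4 levels agree in order, with 2.87, 3.94 and 3.35 for sequence_00580 and 3.31, 3.24 and 3.67 for sequence_01137.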
